A study of Mus musculus with 1778 samples.

Results

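Surface ectoderm-like cells were taken as the cells in which at least 4 of 8 epithelial genes (Epcam, Cdh1, Krt8, Krt18, Krt19, Cldn7, Grhl2 and Wnt6) reached a level of 20 CPM, that is 20 reads in 1000000 reads on genes, with spike-in reads and Rn45s, the 45S pre-ribosomal RNA, left out of the total. Of 1728 kept cells 14.06% met the rule and are called members, and the remaining 1485 cells, called other cells, served as the comparison. A cell was kept if its reads on genes came to 50000 or more and covered no fewer than 1500 genes. The members were thus chosen by the measured CPM of those 8 genes, in the same libraries that are described here, so every difference between members and other cells is a description and carries no test.

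The cells came from C57BL/6 mouse embryos of the genotype Wnt1::Cre; Rosa26TdTomato, dissected at 4, 6, 8 or 10 somites. Cre recombinase under the control of Wnt1 turns on the red fluorescent protein TdTomato, and the protein stays on in all descendants of a cell that has once expressed the Cre. All 4 groups carried both alleles. They differed by stage and in part by the plates that held them. Single cells were sorted by flow cytometry, the submitters labelled every cell as cranial neural crest, and libraries were made with Smart-Seq2, which covers whole transcripts and uses no molecular identifiers. No embryo is named in the labels. Each stage therefore counts as a single pool, no cell was treated as a replicate, and no p-value is given. Intervals are exact at 95% and cover counting error at most. Those of summed CPM take every read as independent, which PCR copies of 1 molecule are not, and they leave out the spread between cells. Members had a median of 907116 reads on genes and 7058 detected genes, against 851605 reads and 6971 genes in the other cells.

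Some wells stood apart. In 13.72% of the kept cells the expression profile had a correlation above 0.8 with another kept cell, over 9424 genes, where the median highest correlation of the remaining cells was 0.65. For all but 10 of these look-alike wells the closest match lay within 2 wells on the same plate, against 3.49% of the remaining cells, and most lay in the outermost rows or columns of the plate. They held a median of 9854 detected genes against 6779. Look-alike wells held 57 of the members (23.46%) and 180 of the 1485 other cells (12.12%), and 23 of the 30 members at 10 somites. No pair of wells was identical. What made them alike was not tested, so results are given with and without them. Unless all kept cells are named, values below come from the 1491 kept cells outside look-alike wells, of which 1305 were other cells and 12.47% members.

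The surface ectoderm is the outer epithelial sheet of the embryo that gives rise to the epidermis. At its border with the neural plate lie the neural crest, whose cells leave the epithelium and migrate, and the pre-placodal region, where genes of the Eya family are active, from which the lens, nose, inner ear, anterior pituitary and parts of the cranial sensory ganglia form. Epithelial cells are held together by E-cadherin, claudins and desmosomes over a network of keratins, and factors of the Grhl, Ovol, Dlx, Tfap2 and Gata families are active in the early surface ectoderm and its border.

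The members were the upper tail of a graded distribution. Counted by the number of rule genes at 20 CPM or more, 60, 46, 60, 63 and 14 kept cells held 4, 5, 6, 7 and 8 of them, and 1485 held 3 or fewer, with 330 cells at 2. Just inside the limit, 37 of the 60 cells with 4 rule genes held Epcam, Cdh1, Krt8 and Krt18. Just outside it, 55 of the cells with 3 held Epcam, Krt8 and Krt18, the most frequent combination there, and 28 held Cdh1, Krt8 and Krt18.

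Over all plates, members took a larger share of the kept cells at 4 and 6 somites than at 8 and 10, but not within every plate number. The share was 25% at 4 somites (55 of 220 cells, interval 19.4% to 31.3%), 17.01% at 6 somites (14.5% to 19.7%), 7.05% at 8 somites (16 members, 4.08% to 11.2%) and 6.73% at 10 somites (30 members, 4.58% to 9.46%). Without look-alike wells the shares were 23.2%, 15.6%, 6.43% and 2.02%. At 10 somites 7 members then remained. Stage and the number in each title, read here as the plate, are partly bound together, and the only number with members at both 4 and 6 somites gave 28.1% (36 members) and 18.3% (33 of 180 cells). The only number with cells at 6, 8 and 10 somites gave 13.9% (6.87% to 24.1%), 7.55% (4.38% to 11.97%) and 18.2% (9.08% to 30.9%), the highest at the oldest stage, and 9.80%, 6.43% and 0% without look-alike wells. At 8 somites all 16 members carried that number, and the other number of that stage held 0 of 15, which allows a share of up to 21.8%. At 10 somites 1 number gave 20 members (5.28% of its cells), the number just described 10 of 55, all of them in look-alike wells, and the remaining one 0 of 12. The shares are those of sorted cells, and what the sort passed on at each stage was not tested.

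**Figure D1:**
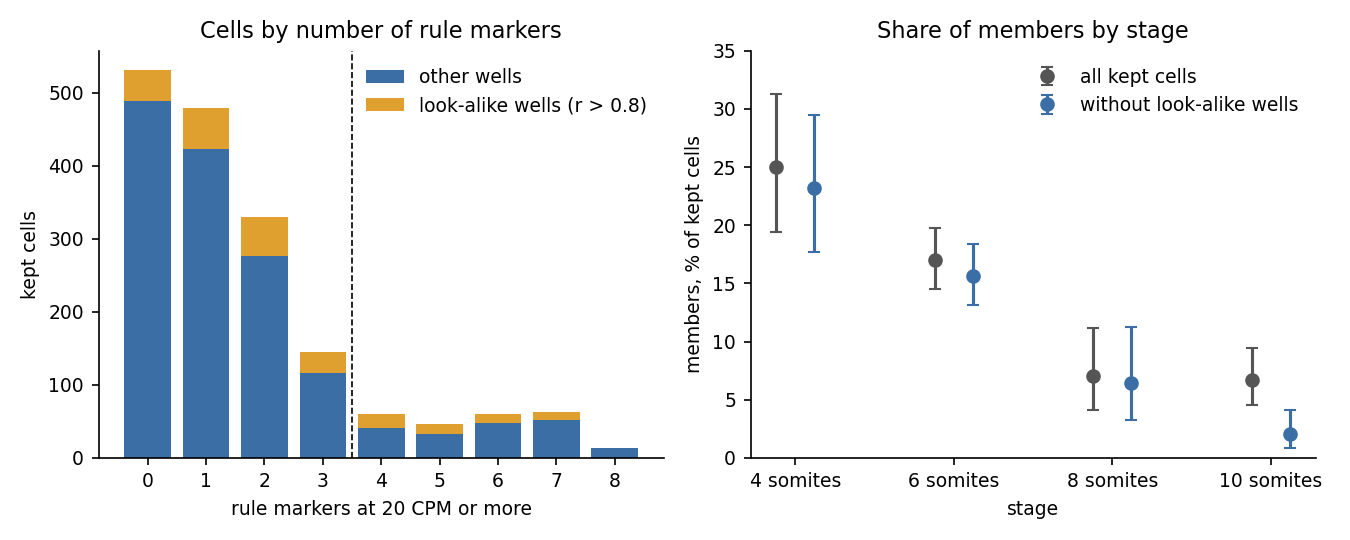
Left, number of kept cells (vertical axis) by how many of the 8 rule genes reached 20 CPM (horizontal axis), with look-alike wells stacked in a second colour and a dashed line at the limit of 4. Right, members as a percent of kept cells by somite stage, with exact 95% intervals, for all kept cells and without look-alike wells; the share was 25% at 4 somites and 6.73% at 10 somites, where it was 2.02% without look-alike wells.

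The rule genes, as a description of what chose the cells, stood at 374.1 CPM for Epcam, an adhesion protein of epithelia, in reads summed over the members, and at 10.03 CPM in the other cells. Cdh1, the gene for E-cadherin, stood at 267.8 and 17.2 CPM. Krt19 (26.9% of members at 20 CPM or more), Wnt6 (39.8%), Grhl2 (59.7%) and Cldn7 (74.7%) were the rule genes that many members lacked. In such sums, fewer cells with a transcript and less RNA per cell cannot be told apart.

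The label given to the cells was then held against markers of other types, each called when at least 4 genes of its list (3 for short lists) reached 20 CPM. Against the submitters' label, Sox10, the defining transcription factor of early neural crest, reached 20 CPM in 23 members (12.4%) and in 42.5% of the 1305 other cells. A crest rule was met by 21 members (11.3%) and by 41.8% of the other cells, and a neural plate rule by 17 members (9.14%) and 22.4%. In all kept cells the crest rule was met by 68 members (27.98%), so most of the members with a crest profile sat in look-alike wells. By the longer marker lists, 32.8% of members held at least 4 of 17 crest genes, against 59.5% of the other cells, and 40.9% held at least 4 of 20 neural plate genes, against 53.3%. Only 1 and 2 genes of these lists, Pax3 and then Sox3 and Pax2, were also in the surface ectoderm or placode lists. Counting these and the lists that follow, 63.4% of members met at least 1 list of another type, against 97.5% of the other cells. Endoderm was met by 6 members, extraembryonic ectoderm and amnion by 3, visceral endoderm and head mesoderm by 1 each, and notochord, heart, endothelium and blood by 0. The 3 genes measured from the extraembryonic list, Gata3, Wnt6 and Krt7, are also known in surface ectoderm, and the defining trophoblast factors Cdx2 and Elf5 stood at 0 and 0.193 CPM. No doublet caller was run. The name surface ectoderm-like was kept for the members as a whole, with the reservation that many also carried markers of other types. This held for 79.5% of members with 4 or 5 rule genes and for 53.1% of those with 6 or more, where 30.1% met the crest list and 28.3% the neural plate list.

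Levels of single genes also differed with the number of rule genes. From 3 through 8 rule genes, Cldn6 stood at 14.4, 61.2, 280, 464.2, 636.4 and 640 CPM. Sox10 stood at 94.6, 55.5, 11.5, 6.68, 2.79 and 16.1 CPM over the same steps, and Ets1, a crest factor, at 153.9, 152.4, 19.4, 15.1, 17.6 and 6.92 CPM. The main step of both crest factors thus lay between 4 and 5 rule genes, not at the limit of the rule. The crest rule was met by 31.9% of cells with 3 rule genes, 26.8% with 4, 9.38% with 5 and 0% of the 13 cells with 8. Dlx5 and Eya2 stood at 48.8 and 39.5 CPM at 4 rule genes and at 101.9 and 83.04 at 5, with no steady climb after 6.

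**Figure D2:**
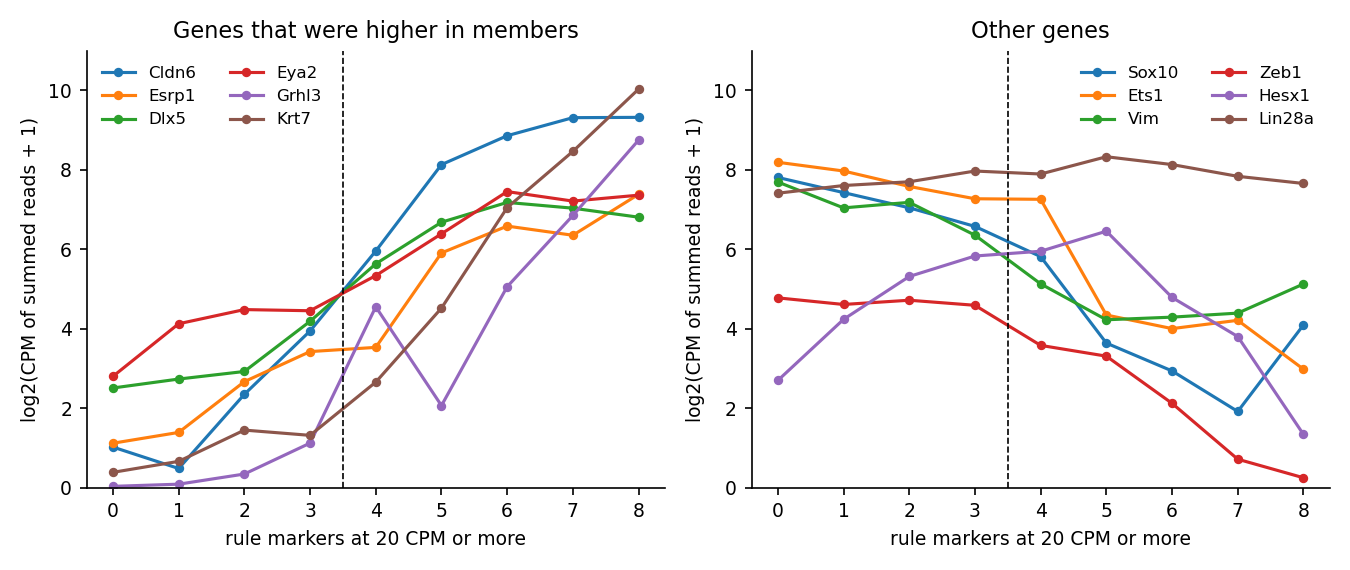
Level of 12 genes, as log2(CPM of summed reads + 1), against the number of rule genes at 20 CPM or more, without look-alike wells. Epithelial, surface ectoderm and placode genes (left) stood higher with more rule genes, as Cldn6 did at 14.4 CPM with 3 and 464.2 CPM with 6, while Sox10 and Ets1 (right) stood lower at 5 than at 4.

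Across all genes outside the rule, how evenly the differences fell in both directions depended on the look-alike wells. Of 10223 genes with at least 5 CPM in either sum of all kept cells, 4.04% were 2-fold or more higher in members and 2.88% were 2-fold or more lower. Without look-alike wells 4.8% of 10267 genes were higher and 4.42% lower. A gene that passed the limit in 1 sum only could be called in that direction only, in the gene lists below as well. Among all kept cells 96 genes were 8-fold or more higher and 7 were 8-fold or more lower, whereas without look-alike wells 1.11% of genes were 8-fold or more higher and 0.867% (89 genes) lower. In each of the 8 combinations of plate number and stage with at least 5 members, 84 genes were 2-fold higher and 65 were 2-fold lower without look-alike wells. With all wells, in 10 combinations, the counts were 56 and 0, so no gene kept a 2-fold lower level in every combination there.

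The genes named by size included parts of tight junctions and of apical transport, proteases and their inhibitors, and transcription regulators. Cldn6, a claudin of embryonic epithelia, ranged over single members from 0 to 1703 CPM with a median of 382.9 and reached 20 CPM in 87.6% of members. In the other cells it ranged from 0 to 477.8 CPM with a median of 0, and 54 of 1305 reached that level. The range of the other cells thus lay within that of the members and reached above the member median, though few other cells reached 20 CPM. The sums were 395.4 CPM against 2.73 CPM (2.59 to 2.88), a log2 ratio of 7.18. Cldn4, a second claudin, stood at 85.4 against 0.0907 CPM (log2 ratio 9.87) and reached 20 CPM in 94 members and 2 other cells. Rab25, a small GTPase of apical recycling, stood at 48.97 against 1.96 CPM. Ap1m2, the epithelial subunit of the AP-1 clathrin adaptor, stood at 107.4 against 7.18 CPM. Cgn, which codes for the junction protein cingulin, stood at 66.8 against 5.07 CPM, and Lad1, a protein first known from basement membranes, at 76.3 against 1.87 CPM. Esrp1, the epithelial splicing factor, and Prss8, a membrane-anchored serine protease, had log2 ratios of 4.54 and 4.95. Spint1 (3.31) and Spint2 (2.95 without look-alike wells, 2.84 with all) code for inhibitors of such proteases. Tmem54, Stard10, Grb7 and Cacna1b completed the named genes with log2 ratios of 5.18, 3.57, 3.09 and 3.04, and Bcam, an adhesion receptor for laminin, had 2.65 in all kept cells. Dlx5 and Eya2, named by the same selection, are transcription regulators and are described with their families.

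Genes of junctions and the apical side were higher as a group. Of 23 measured, 19 were 2-fold or more higher and 1 lower in both versions, with a median log2 ratio of 3.74 in all kept cells and 3.83 without look-alike wells, where the median of all genes was -0.01. Over the 8 combinations of plate number and stage that median lay between 1.58 and 7.24. Cldn3 (10.7 against 0.125 CPM), Cdh3, the gene for P-cadherin (42.4 against 0.465), and Crb3, an apical polarity protein (20.5 against 0.264), stood near 0 outside the members. Dsp, the desmosomal plaque protein desmoplakin, stood at 66.9 against 3.82 CPM. Not all junction genes differed: Jup (log2 ratio 0.76), Lsr (0.65) and Ezr (0.37) stayed within 2-fold, and Myo5b, a myosin motor of apical transport, stood at 4.67 against 16.4 CPM. Of 10 genes for epithelial splicing and surface proteases, 9 were 2-fold or more higher, among them St14 (40.3 against 0.891 CPM), the protease that acts with Prss8.

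The promoters of some of these genes hold the E-box CACCTG, or CAGGTG when read on the other strand, a sequence that repressors of the Snail and Zeb families are known to bind. In RefSeq promoters on GRCm38.p6, the 250 bases before the start were searched for both spellings, which are 1 motif on the 2 strands. The motif occurred in 5252 of 27025 genes with an entry (19.4%), in 10 of the 16 junction and apical genes with an entry (62.5%), in 4 of 5 rule genes (80%), in 3 of 7 splicing and protease genes (42.9%), in 2 of 11 surface ectoderm factors (18.2%) and in 1 of 29 placode genes (3.45%). A match describes the letters and is neither a bound site nor a cause. The 250 bases before the start are shown for 3 genes with several copies, with the motif in capitals, to let the copies be seen: Epcam on the plus strand (chr17:87635729-87635978), Ap1m2 on the minus strand (chr9:21312334-21312583), which holds 4 copies, and Rab25 on the minus strand (chr3:88548280-88548529).
Epcam: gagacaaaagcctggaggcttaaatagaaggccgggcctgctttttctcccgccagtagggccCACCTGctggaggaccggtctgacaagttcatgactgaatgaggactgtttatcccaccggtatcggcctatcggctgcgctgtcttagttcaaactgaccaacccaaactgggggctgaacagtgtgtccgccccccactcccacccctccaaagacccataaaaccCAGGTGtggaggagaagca
Ap1m2: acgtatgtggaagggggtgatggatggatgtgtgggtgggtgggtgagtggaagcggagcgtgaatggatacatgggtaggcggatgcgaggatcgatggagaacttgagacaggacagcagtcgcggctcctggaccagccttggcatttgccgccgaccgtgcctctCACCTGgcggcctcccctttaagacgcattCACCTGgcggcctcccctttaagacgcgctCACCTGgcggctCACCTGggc
Rab25: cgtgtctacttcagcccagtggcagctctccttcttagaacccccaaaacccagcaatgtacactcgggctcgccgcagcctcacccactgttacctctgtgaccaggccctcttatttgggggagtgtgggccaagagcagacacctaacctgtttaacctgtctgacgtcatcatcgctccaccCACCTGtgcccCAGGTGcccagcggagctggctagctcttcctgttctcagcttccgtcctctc
In the same cells, Zeb1 stood at 5.23 CPM in members against 24.98 in other cells, Zeb2 at 22.2 against 59 and Snai1 at 13.3 against 50.6. Zeb1 stood at 23.1 CPM in cells with 3 rule genes and at 11, 8.94, 3.37, 0.647 and 0.192 CPM in cells with 4 through 8. Whether these levels bear on the promoters was not tested.

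Of 12 keratins outside the rule 3 passed the limit of 5 CPM, Krt7, Krt23 and Krt10, and the first pair were 2-fold or more higher in members. Krt7, a keratin of simple epithelia, stood at 200.9 CPM in members and 0.822 in other cells (log2 ratio 7.93), and reached 20 CPM in 69 members (37.1%). Over single members its median was 0 at both 4 and 6 somites, 220.8 CPM at 8 somites and 1886 at 10, with the highest cells at 547.7, 2154, 3173 and 3265 CPM. It reached 20 CPM in 14.3% of 49 members, 40.3% at 6 somites, 72.7% of 11 and 85.7% of 7. The stages overlapped, since each held members without a read. In all members of 10 somites the median was 92.02 CPM, so the level of the oldest stage rests on whether its look-alike wells are counted. Within the plate number that held 6, 8 and 10 somites, Krt7 stood at 66.6, 774.8 and 151.9 CPM in all members. Krt23 stood at 0.541, 2.63, 61.8 and 0 CPM over the stages and Krt10 at 9.16, 4.34, 1.57 and 12.4, so the keratins followed no common course. Wnt6, a ligand of the surface ectoderm and a rule gene, stood at 30.2, 64.8, 287.9 and 535.7 CPM at the 4 stages. In all members of the plate number with 6, 8 and 10 somites, Wnt6 stood at 54.3, 217.1 and 91.7 CPM. Krt5, a keratin of basal epidermis, stood at 2.71 CPM in members and 0 in other cells, and Trp63, the master factor of stratified epithelia, at 2.76 against 0.175 CPM, both below the limit of 5 CPM for a ratio.

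**Figure D3:**
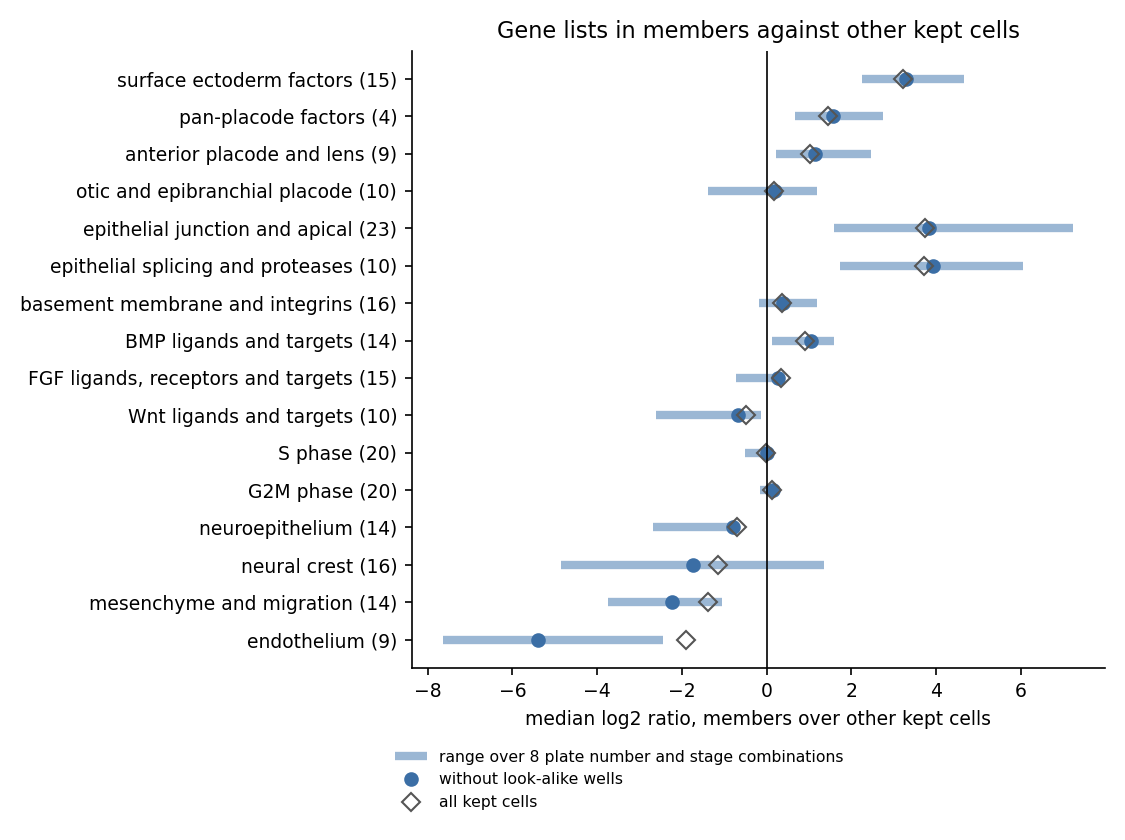
Median log2 ratio of members against other cells for gene lists (horizontal axis), without look-alike wells (circles) and in all kept cells (diamonds), with bars for the range over 8 combinations of plate number and stage. Junction genes lay at 3.83 and surface ectoderm factors at 3.28, against -1.74 for neural crest and -2.23 for mesenchyme genes.

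Transcription factors of surface ectoderm, none of which entered the rule, were higher in members. Of 20 listed genes 15 passed the limit of 5 CPM, and 14 of these were 2-fold or more higher (13 in all kept cells) and 0 lower, with a median log2 ratio of 3.28 (3.21) and a range of 2.25 to 4.66 over the combinations. Over all genes 4.8% were higher and 4.42% lower. Dlx3, Grhl3, Ovol1, Foxi2, Foxi3 and Gata3 passed the limit through the members alone. Such genes could not be counted as lower, so the count describes the members and is no separate support for their name. Dlx5, a homeobox factor of the neural plate border and placodes, ranged from 0 to 627.2 CPM over single members with a median of 71.5, and from 0 to 277.2 with a median of 0 in other cells. It reached 20 CPM in 66.7% of members (59.4% to 73.4%) and 9.35% of the others (7.82% to 11.1%), so a large share of members stood above nearly all other cells while the ranges overlapped. The sums were 109.1 (106.8 to 111.4) against 6.58 CPM (6.36 to 6.81), a log2 ratio of 4.05 that lay between 3.04 and 5.77 in the 8 combinations. That share was similar over the stages, with 71.4%, 63.9%, 72.7% and 71.4% of members at 20 CPM or more. Its relative Dlx3 stood at 12.1 against 0.222 CPM.

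Grhl3, a Grainyhead factor needed for neural tube closure and the epidermal barrier, was high in few members. It reached 20 CPM in 39 members (20.97%) and 5 of 1305 others, with single members up to 2499 CPM, and stood at 72.4 against 0.199 CPM in the sums. By rule genes it stood at 3.20, 32.4, 114.7 and 429.9 CPM in cells with 5, 6, 7 and 8. Ovol1, a zinc finger factor of epithelia, behaved alike in the sums (13.02 against 0.112 CPM). Foxi2, a forkhead factor of cranial ectoderm, stood at 59.2 against 3.06 CPM, with a log2 ratio between 0.07 and 8.20 in the combinations. In members it stood at 14.7, 54.1, 215.5 and 240 CPM from 4 to 10 somites. Within the plate number that held 6, 8 and 10 somites, Foxi2 stood at 87.1, 204.8 and 20.9 CPM in all members. Every 10-somite member of that number sat in a look-alike well. Foxi3, its relative in the otic and epibranchial region, stood at 6.13 against 0.0733 CPM.

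The remaining surface ectoderm factors differed less. Tfap2c and Tfap2a, AP-2 factors shared by surface ectoderm and crest, had log2 ratios of 1.98 and 1.20. Gata3 stood at 37.98 against 3.13 CPM, while its relative Gata2 (12.1 against 9.38 CPM) was the measured factor that stayed within 2-fold. Msx1 and Msx2, homeobox targets of BMP signals, had log2 ratios of 1.96 and 1.06, the latter 0.89 in all kept cells. Klf5 and Isl1 had 3.28 and 2.88, and Isl1 reached 20 CPM in 10.2%, 33.6%, 27.3% and 57.1% of members over the stages.

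Placode genes were higher in members, but not evenly. Of 43 listed genes 26 were measured, 13 of them were 2-fold or more higher (12 in all kept cells) and 0 lower, with a median log2 ratio of 1.002 (0.90). Over the combinations of plate number and stage that median lay between 0.109 and 1.65, so it was small in some of them. Foxi2, Foxi3 and Isl1 are also in the surface ectoderm list, so they are counted in both families. Eya2, a transcriptional cofactor and phosphatase, ranged from 0 to 712.8 CPM over single members with a median of 70.9, and from 0 to 580.7 with a median of 0 in other cells. It reached 20 CPM in 120 members (64.5%) and 12.1% of the others, and the sums were 119.1 (116.7 to 121.5) against 14.1 CPM (13.8 to 14.5), a log2 ratio of 3.08. Eya1 stood at 66.1 against 23.4 CPM and Six4 at 34.98 against 16.6. Over the stages of the members Eya2 stood at 100.1, 121.1, 172.1 and 151.4 CPM. With look-alike wells counted, Eya2 stood at 97.1, 109.2 and 57.4 CPM in members of 4, 6 and 10 somites, so its course depends on these wells.

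Factors of the anterior placodes, which give the pituitary, nose and lens, split into a few that were nearly limited to members and others shared with neural plate. Pitx1, an oral ectoderm and pituitary factor, reached 20 CPM in 28 members (15.05%) and 0 of 1305 others, whose highest cell stood at 15.5 CPM against 583.4 in members. Its sums were 14.2 against 0.0251 CPM. Six6, a factor of eye and pituitary, stood at 8.49 against 0.793 CPM. Six3 and Hesx1, both also active in the anterior neural plate, stood at 22.8 against 10.3 and 40.9 against 21.5 CPM. Hesx1 stood at 66.7, 33.9, 0 and 9.20 CPM over the stages of the members. With look-alike wells counted, Hesx1 stood at 63.5, 30.4 and 3.15 CPM in members of 4, 6 and 10 somites. It stood at 46.2, 27.35 and 3.17 CPM in the other cells, so both groups were lower at later stages. Pax6 and Sp8 had log2 ratios of 0.47 and 0.53, and Maf had 1.67. The lens factor Foxe3 stood at 0 CPM in members.

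Otic, epibranchial and trigeminal genes were less set apart. Pax8, an early factor of the otic and epibranchial region, reached 20 CPM in 36 members (19.4%), with a highest cell of 2139 CPM, and in 10.96% of the others, with a highest cell of 1250. The sums were 58.4 against 18.6 CPM, but the log2 ratio lay between -5.24 and 4.07 over the combinations and was 2-fold or more higher in 2 of 8. By stage it stood at 9.99, 58.03, 322.5 and 0 CPM in members. At 8 somites 7 of 11 members reached 20 CPM, and at 10 somites 0 of 7 did, where all wells gave 16 of 30. Pax2, Gbx2, Fgf3, Sall4, Sox3 and Lmx1a had log2 ratios of 0.19, -0.14, -0.13, 0.18, -0.54 and 0.81. Tbx1 had -0.81, with 13 members at 20 CPM or more. Pax3, which marks the trigeminal placode as well as crest and dorsal neural tube, stood at 64.3 against 35.9 CPM. Ebf1 had a log2 ratio of -0.89, and the neurogenic factor Neurog1 stood at 1.70 CPM.

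With all stages pooled, Six3 and Hesx1, factors of anterior placodes and anterior neural plate, lay mostly in other members than Pax8. Of the 49 members with Six3 at 20 CPM or more, 75.5% also held Hesx1, against 8.76% of the members without Six3, and 87.8% held Otx2, a head factor, against 48.2%. None of the 49 held Pax8, which 26.3% of the members without Six3 held. Gbx2, a factor of the hindbrain level, was in 19 of the 36 members with Pax8 and 16 of the 150 without, and Otx2 in 11 of 36 and 98 of 150. Pitx1 went with Isl1 (64.3% of 28 members, 21.5% of those without), and 0 of the 28 held Pax8. Foxi2 went with Krt7 (58.6% of 58 members, 27.3% of those without) and with Grhl3 (37.9% and 13.3%), and with Six3 in 3 cells. Counting look-alike wells too, Pax8 was in 2 of 58 members with Six3 and 35.1% of those without, and in 4 of 59 with Hesx1. Groups of members share plates, stages and depth, and the pairs shown were picked with the values known, so these counts describe the cells and support no further statement. Hesx1 and Pax8 levels differed between stages, and no count within a single stage is given. The part of stage in these counts was not tested.

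**Figure D4:**
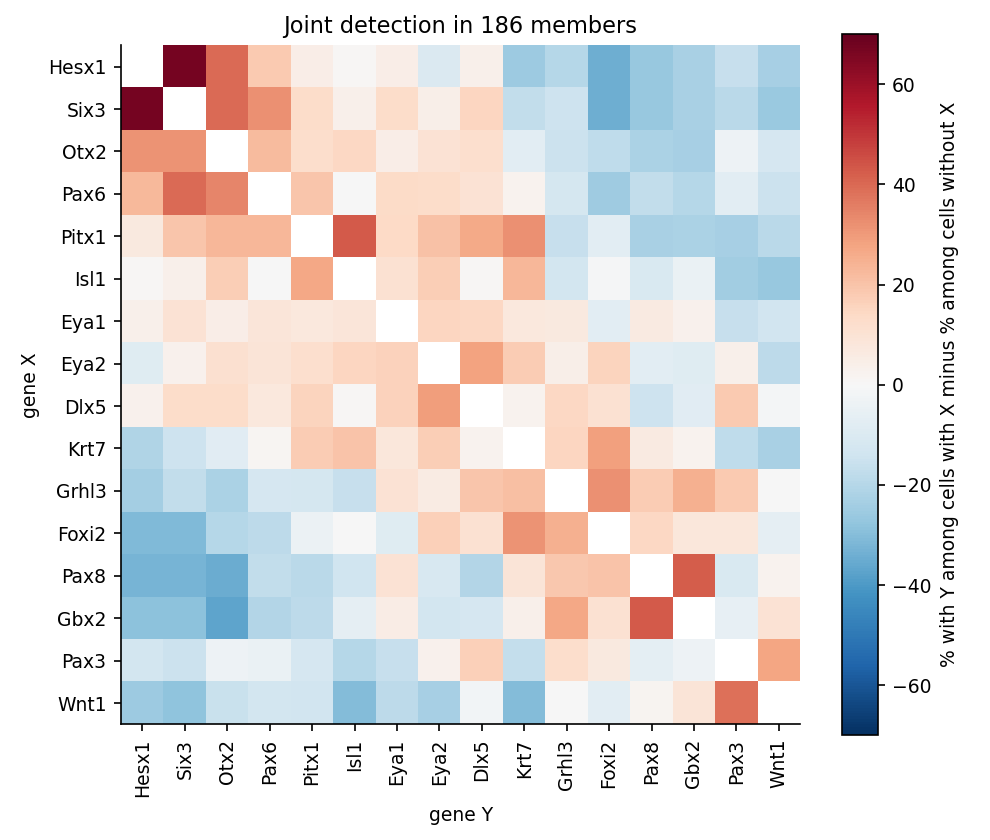
For 16 genes, the percent of members with the column gene at 20 CPM or more among members with the row gene, minus that among members without it, in percentage points, in the members outside look-alike wells. With all stages pooled, Six3 and Hesx1 stand together and apart from Pax8, which goes with Gbx2.

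Signalling genes showed BMP ligands among the higher genes. Of 14 genes for BMP ligands and targets 8 were 2-fold or more higher and 1 lower (5 and 1 in all kept cells), with a median log2 ratio of 1.05 (0.90). The ligands Bmp2 (39.4 against 1.83 CPM), Bmp4 (12.2 against 2.73), Bmp5 (52.8 against 16.9) and Bmp7 (76.5 against 24.8) were all higher, whereas Fst, the gene for the inhibitor follistatin, stood at 14.9 against 48.03. Of the targets, Id1, Id2 and Id3 had log2 ratios of -0.02, -0.58 and 0.20, while Id4 and Bambi had 1.17 and 1.03 and Msx1 and Msx2, described above, were also 2-fold or more higher. Of 15 FGF genes 2 were higher, Fgfr3 (29.4 against 13.5 CPM) and the feedback inhibitor Spry1 (66.2 against 30.9), and 2 were lower. In all kept cells 1 FGF gene was higher and 0 were lower. Of 10 Wnt genes 1 was higher and 3 were lower, whereas in all kept cells all 10 stayed within 2-fold.

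Wnt1, whose regulatory DNA drives the Cre, stood at 29.7 CPM (28.5 to 30.9) in members and 62.6 in other cells. Within members it stood at 51.7, 22.5, 6.29 and 1.06 CPM at 4, 6, 8 and 10 somites. Low Wnt1 reads do not tell whether a cell once expressed the Cre, and reads of the Cre and of TdTomato were not analysed here. Lef1, a nuclear mediator of Wnt signals, stood at 27.4 against 56.9 CPM, and the target Axin2 had a log2 ratio of 0.35. In the retinoic acid list 2 of 10 genes were higher and 2 lower. Aldh1a3, an enzyme of retinoic acid synthesis known in the eye and nose, stood at 16.2 against 0.168 CPM but reached 20 CPM in 5 members only.

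Of 16 genes for basement membrane and integrins 5 were 2-fold or more higher and 1 lower. Npnt, the integrin ligand nephronectin, stood at 73.6 against 3.28 CPM, Itga3, a laminin-binding integrin subunit, at 37.4 against 5.39, and Lama5, a laminin chain, at 62.03 against 19.99. The lower gene was another laminin chain, Lama1 (7.77 against 22.5 CPM). Laminin chains thus differed in both directions.

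Summed over all stages, crest and mesenchymal genes were lower in members, by an amount that rested on the look-alike wells. Of 16 crest genes 12 were 2-fold or more lower and 0 higher, with a median log2 ratio of -1.74, and in all kept cells 10 were lower, with a median of -1.15. Sox10 ranged from 0 to almost 500 CPM over single members and from 0 to 1869 in other cells, with a median of 0 in both, so the ranges overlapped. Its sums were 18 CPM (17.1 to 18.97) against 174.7 CPM, a log2 ratio of -3.28, and 67.5 against 187.4 in all kept cells (-1.47). Ets1 stood at 46.3 against 243.7 CPM and Mef2c, a factor of crest and muscle, at 3.13 against 70.1. Not all crest genes differed, since Sox9 stood at 84.5 against 80.99 CPM. The crest median was above 0 in 1 combination, the plate number shared by 4 and 6 somites at 4 somites, where it was 1.36 and where the other cells stood at 4.31 CPM of Sox10.

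Of 14 mesenchyme and migration genes 11 were 2-fold or more lower (10 of 13 in all kept cells), with a median log2 ratio of -2.23 (-1.38). Vim, the intermediate filament vimentin, stood at 23.3 against 157.1 CPM and reached 20 CPM in 56 members (30.1%) and 62.3% of the others. Pdgfra, a growth factor receptor of crest mesenchyme, stood at 2.82 against 30.5 CPM, and Itga4, an integrin subunit of migrating crest, at 1.43 against 15.2. Fn1, the gene for fibronectin, did not differ by 2-fold (143.5 against 133.6 CPM).

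Of 14 neural plate genes 5 were 2-fold or more lower and 0 higher, with a median log2 ratio of -0.81 (-0.69 over 15 genes in all kept cells). Sox1 (3.12 against 9.81 CPM), En1 (4.50 against 13.6) and Hes3 (16.01 against 63.8), all neural progenitor factors, were lower, while Sox2, which is also active in placodes, stood at 27.7 against 30.1. Otx2 had a log2 ratio of 0.69. The genes named by size as lower were Rasa3, Spon1, Igfbp4, Peg12 and Chst2, with log2 ratios of -3.34, -2.65, -2.61, -1.98 and -1.73, of which none passed the same rule in all kept cells. Rasa3, a Ras GTPase-activating protein, stood at 172.3 CPM in the other cells that met the crest rule and at 16.98 in those that met the neural plate rule, against 9.41 in members.

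Cell-cycle lists differed little. Of 20 S-phase and 20 G2M-phase genes 0 were 2-fold higher or lower, with median log2 ratios of 0.01 and 0.14. Of 9 genes of pluripotency and primed epiblast, with a median of 0.58, 2 were higher, Fgf5 (21.3 against 3.27 CPM) and Utf1 (6.30 against 0.843). Of 12 immediate early and handling genes, with a median of 0.77 that lay between -1.61 and 2.76 over the combinations, 4 were higher, among them Fos (302.2 against 132.5 CPM, with log2 ratios from -5.92 to 3.97 over the combinations) and Egr1 (78.9 against 30.02). Their part in the other differences was not tested.

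A small set of members carried endoderm genes. Outside look-alike wells 6 members, 1 at 4 somites and 5 at 6 somites, held at least 4 endoderm genes at 20 CPM or more, 4 of them on the plate number shared by these stages. These cells stood at 147.2 CPM for Pax9, a pharyngeal pouch factor, against 5.97 in the other 180 members, at 68.7 against 2.20 for Foxa1 and at 27.8 against 5.33 for Foxa2, forkhead factors of endoderm. Trh, the gene for thyrotropin-releasing hormone, stood at 845.8 against 3.94 CPM. They stood at 0 CPM for Grhl3 and Wnt6 and at 1.13 CPM for Dlx5, against 74.99, 88.9 and 112.9. Their Krt8 and Cldn6 levels, 2359 and 844.3 CPM against 1081 and 379.4, were above those of the remaining members. The name surface ectoderm-like therefore does not hold for these 6 cells, which the epithelial rule had taken in; the endoderm genes were also how they were picked, so their levels describe the pick.

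Stages 4 and 6 could be compared within 1 plate number, which held 36 members at 4 somites and 33 at 6 somites, none in look-alike wells. Of 7274 genes with at least 20 CPM in either sum, 5.31% were 2-fold or more higher at 6 somites and 3.27% lower. The other cells of the same number gave 66 higher and 38 lower of 7177 genes. The sums of few cells vary more, so the 2 counts are not set against each other. Members held different mixes at the 2 stages: 9 of 36 and 18 of 33 held 6 or more rule genes, 5 and 0 met the crest rule, and 9 and 1 met the neural plate rule.

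Cldn4 was among the named genes that stood higher at 6 somites. At 4 somites 5 of the 36 members reached 20 CPM, with a highest cell of 186.5 CPM and a median of 0. At 6 somites 17 of the 33 did, with a highest cell of 688.8 CPM and a median of 32.8. The stages overlapped, since both held members without a read. The sums were 15.1 and 85 CPM, a log2 ratio of 2.49, while no other cell of that plate number held a read. With only members of 6 or more rule genes (9 and 18 cells) the log2 ratio was 2.09, without members that met the crest or neural plate rule it was 2.02, and without the endoderm-gene members it was 2.42. Of the placode genes 7 of 14 measured were 2-fold or more higher at 6 somites and 0 lower, with a median of 1.12, against -0.19 in the other cells. These 7 include Foxi2 and Isl1, which the surface ectoderm list also holds. Isl1 stood at 4.02 and 32.2 CPM, with 21.2 CPM at 6 somites without the 3 members there that carried endoderm genes. Pax8, also among the 7, stood at 6.75 and 40.4 CPM. Eya2 (57.1 and 96.02 CPM) and Six4 (25.1 and 38.03) stayed within 2-fold, as did Hesx1 (78.9 and 42.2).

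Other named genes that were higher at 6 somites were Dab2, an endocytic adaptor (17.2 and 170.1 CPM), Spry1 (19.9 and 102.1), Tmem54 (11.8 and 50.3) and Pik3c2a, a lipid kinase (32.3 and 130). The named genes that were lower at 6 somites were Sox9 (25.6 CPM at 6 somites, log2 ratio -2.63), Mapk8ip2 (54.96 and 9.31 CPM), Sall3 (60.5 and 12.6), Mtmr3 (50.7 and 13.1) and Fgfr2 (58.9 CPM at 6 somites, log2 ratio -1.86). Sox9 is a factor of the plate border, crest and otic placode. In the other cells Sox9 stood at 56.4 and 71.4 CPM, and Fgfr2 had a log2 ratio of -0.45. Without members that met the crest or neural plate rule, Sox9 still had a log2 ratio of -2.04. Of the surface ectoderm factors, Gata3 stood at 13.2 and 53.8 CPM, and Dlx5, at 88.97 and 66.9, stayed within 2-fold. Krt8, a rule gene, had a log2 ratio of 1.49, and of 0.71 among members with 6 or more rule genes.

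A second plate number held 10, 16 and 10 members at 6, 8 and 10 somites, of which 5, 5 and 10 sat in look-alike wells, so its stages differ in that respect too. In these members Pax8 stood at 14.4, 250.2 and 41.95 CPM and Isl1 at 8.97, 75.8 and 5.66, highest at 8 somites. Dlx5 stood at 109.4, 143.1 and 11.7 CPM and Eya2 at 126.8, 134.4 and 29.9, lowest at 10 somites, where no member lay outside look-alike wells. Sox10 stood at 100.7, 147.8 and 235.9 CPM in the same cells.

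**Figure D5:**
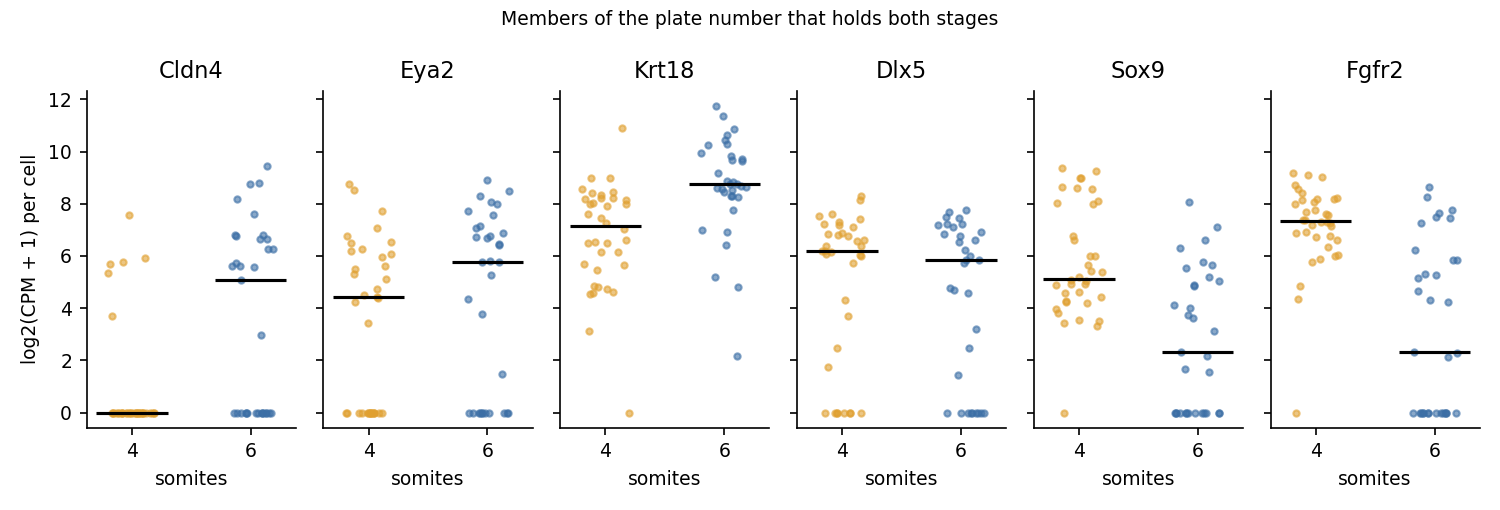
Level of 6 genes in single members of the plate number shared by 4 and 6 somites, as log2(CPM + 1), at 4 somites (36 cells) and 6 somites (33 cells), with bars at the medians. Cldn4 had a median of 0 CPM at 4 somites and 32.8 at 6 somites, Sox9 and Fgfr2 stood lower at 6 somites, and the stages overlapped for all 6 genes.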

How the data were processed

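The deposited values are raw counts, as the whole numbers in the table show: reads for 24920 genes and 92 spike-ins in 1778 Smart-Seq2 cells, each a sample of its own. The alignment used STAR 2.6 and mm10 after bcl2fastq 2.18, per the submitters' processing notes. The sources used here name no read counter and no annotation, so genes with close copies or overlaps are less certain. The members, the gene lists and the comparisons were chosen with earlier results of these data known.

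Of the kept cells 220, 835, 227 and 446 came from 4, 6, 8 and 10 somites, and 243 were members (55, 142, 16 and 30). Look-alike wells numbered 237 of 1728, and 186 members (49, 119, 11 and 7) lay outside them. Kept cells had 92185 to 2098451 reads on genes, and Rn45s took a median of 55.9% of a member's reads.

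Reads were summed over cells, CPM was taken over reads except spike-ins and Rn45s, 0.5 reads were added, and log2 ratios were formed for genes with at least 5 CPM in either sum (20 CPM between stages). A 2-fold difference was the call, which 413 genes met as higher and 294 as lower in all kept cells, 493 and 454 without look-alike wells, and 386 and 238 between 6 and 4 somites on plate number 7350590. No test was run, because no embryo is named. After thinning each cell to 50000 reads, shares of members with a gene moved by a median of 1.65 points.

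The named genes were up to 15 in each direction with the largest log2 ratios among those with at least 20 CPM in the higher sum, 20 CPM in at least 50% of its cells, and a ratio of 2-fold or more and of 1 sign in each plate number and stage with at least 5 members. Rule genes, unnamed models, ribosomal and sex-linked genes were not eligible. The rule named 11 higher and 0 lower genes in all kept cells, and without look-alike wells, a version added after seeing the data, 15 of 21 higher and 5 lower. Measured surface ectoderm and placode genes, up to 4 genes of other lists with the largest ratios, and 6 genes per direction between stages (at least 50 CPM) were also named. Other genes named were chosen after their values were seen. Some genes that these rules select are not reported here by name, and they stay in the counts and medians of their lists.

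Python 3.11.15, numpy 2.4.6, pandas 2.3.3 and scipy 1.17.1 were used, with scaling factors from edgeR 4.0.16 and DESeq2 1.42.0 in R 4.3.3 as alternatives. The log2 ratio of summed reads was tested on simulated counts in which some genes had been changed by known folds. Doublets were not called by software, because cells had been sorted singly, and members with markers of other types are counted in the text.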

Additional observations from a re-analysis of the deposited data

How the results depend on the processing

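The list medians compared kept their sign in every alternative run. Shares and gene counts have no sign, so only their size was compared. In all, 42 values moved beyond their limits and the others stayed within them. The limits were the exact interval of a share and 1.5-fold for a count of genes. For a median the limit was its standard deviation over the combinations of plate number and stage. The order of the stages was not always kept. Without 1 plate number the share was 14.9% at 10 somites, above the 7.05% at 8 somites. With at least 3, 5 or 6 rule genes, the share of members at 4 somites was 42.7%, 17.7% or 11.4%, and at 6 somites 26.4%, 13.1% or 10.3%. At 10 somites it was 10.99% with 3 and 3.59% with 6. A level of 50 CPM gave 17.7%, 14.01% and 3.59% at 4, 6 and 10 somites, and Rn45s in the total gave 18.6%, 13.9% and 4.48%. The 10-somite share was 9.87% at a level of 10 CPM, 9.50% in cells thinned to 50000 reads, and 2.02% or 2.55% without wells whose best correlation exceeded 0.8 or 0.85. Leaving out 1 plate number at a time, the shares lay between 20.7% and 28.1% at 4 somites, 16.4% and 18.1% at 6, 0% and 7.55% at 8 (0% without the number that held every member), and 5.12% and 14.9% at 10 (14.9% without the number with the most cells).

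Genes 2-fold or more higher, 4.04% of those tested, came to 11.1% with no minimum level, 2.27% with a minimum of 20 CPM, and 7.10% without members that carried another type's markers (3.73% to 4.88% with 1 plate number left out). Lower genes, 2.88%, came to 14.99%, 1.32% and 7.31% in these settings, 1.89% with 3 rule genes, 1.81% at 10 CPM, 4.42% or 4.40% without look-alike wells at 0.8 or 0.85, 4.51% with 6 rule genes, and 5.04% without members that met the crest or neural plate rule (2.56% to 3.14% with 1 plate number left out). The median log2 ratio of surface ectoderm factors was 2.28 with 3 rule genes. That of neural plate genes was -2.43 without members with another type's markers, -1.28 with 6 rule genes and -1.23 without members that met the crest or neural plate rule, and that of crest genes was -3.23 and -2.35 in the first and last of these. Genes that differed between 6 and 4 somites came to 3.87% of those tested with 3 rule genes, 16.6% at 5 CPM, 3.44% over all plate numbers and 20.7% with 6 rule genes. Placode and junction medians stayed within 0.57 to 1.16 and 3.18 to 4.34. The cause of these shifts was not tested, beyond the numbers of genes and cells that a setting itself changes. Settings that leave out look-alike wells, members by crest or neural plate rule, or members under 6 rule genes were chosen after seeing the data.

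No paired analysis was possible because the labels name no embryo and the cells carry no replicate number shared between stages. Depth limits genes near 1 read per cell, and at 8 and 10 somites the 11 and 7 members outside look-alike wells limit every value.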
